A study of Mus musculus with 16 samples.

Results

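The genes described here charge transfer RNAs in the cytosol or belong to the amino acid arm of the integrated stress response, which the transcription factor ATF4 controls. They were measured in mesenchymal stromal cells of mouse muscle after calcitonin gene-related peptide (CGRP), a neuropeptide of sensory nerves. Of 42 listed symbols, 41 had at least 10 reads in 4 or more libraries, of 14236 genes that did so among 52997 symbols in the count table. The 41 are 19 cytosolic aminoacyl-tRNA synthetases and 22 genes of the ATF4 response and of amino acid transport. The symbol left out was Chac1, with 0 to 15 reads per library and at least 10 in 1 of them, and the member nearest the limit was Slc7a11, with at least 10 reads in 7 libraries. Within the list, members were chosen by their read counts and by no contrast between groups, and the list itself was drawn up with earlier results of these data known. All 41 were among the 13949 genes that entered the statistical model.

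Each aminoacyl-tRNA synthetase joins 1 kind of amino acid, or in the case of Eprs glutamate and proline, to the transfer RNAs that carry it to the ribosome. When an amino acid runs short, uncharged transfer RNA activates the kinase GCN2, which phosphorylates eIF2. General translation then falls while the Atf4 message is translated more, so the activity of ATF4 can change with no change of its messenger RNA. ATF4 binds composite C/EBP-ATF elements and raises genes for amino acid synthesis, amino acid import and tRNA charging, together with feedback genes that restore translation.

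The study compared 4 groups with 4 biological replicates in each. C57BL/6 mice aged 8 weeks received CGRP or PBS (buffered saline) into the peritoneum, and cells of hindlimb muscle were collected 4 h or 8 h later. The groups were CGRP 4 h, PBS 4 h, CGRP 8 h and PBS 8 h, and no mouse carried a described mutation. Each library came from 1000 cells sorted in 2 rounds, with complementary DNA primed by oligo(dT). The Nextera XT kit used leaves the strand unmarked. Dose, sort markers and any pooling of mice are not given in the sources.

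The libraries held 6373713 to 10011920 reads in genes. The markers that define these cells, Pdgfra, Pdgfrb, Ly6a, Dcn, Gsn and Col1a1, were abundant in each group, and Pdgfra averaged 508 CPM (read counts scaled to a fixed library size) in CGRP 4 h libraries and 671 CPM in PBS 4 h libraries. The macrophage list of 10 genes summed to 10.8 to 26.3 CPM over all libraries and the lymphocyte list of 8 genes to 0.108 to 2.13 CPM, of which 4 and 0 genes were tested and none was called in any contrast. The libraries differed in other respects too. The transcript Gm10800 took 1.77 to 2.45% of the reads in PBS 8 h replicates 1, 2 and 3, against 0.536 to 1.01% in the other libraries, PBS 8 h replicate 4 among them. The higher share was thus found in PBS 8 h libraries alone, and in those 3 libraries it and the group cannot be told apart. PBS 4 h replicate 4, PBS 8 h replicates 1 and 4 and CGRP 4 h replicate 3 had the most genes detected, 23294 to 25579, against 21138 to 22341 in the rest.

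Promoter stretches are shown for the 4 members that were called after CGRP and hold the core of the ATF4 response element within the 120 bases before their start, and for Atf4, which does not hold it there. Each is those 120 bases just before the RefSeq transcript start, in build GRCm38 (mm10), read 5′ to 3′ on the strand of the gene. Capitals mark TGATGNAA, or its reverse complement, where N is any base. Gars lies at chr6:55037881-55038000, forward strand, Asns at chr6:7693210-7693329, reverse strand, Tars at chr15:11399659-11399778, reverse strand, Aars at chr8:111033722-111033841, forward strand and Atf4 at chr15:80255064-80255183, forward strand.
Gars: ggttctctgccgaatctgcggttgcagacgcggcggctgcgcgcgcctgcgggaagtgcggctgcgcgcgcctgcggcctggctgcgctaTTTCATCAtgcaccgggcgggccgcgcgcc
Asns: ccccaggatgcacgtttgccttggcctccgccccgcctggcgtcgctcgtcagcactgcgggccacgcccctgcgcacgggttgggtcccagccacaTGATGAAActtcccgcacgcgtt
Tars: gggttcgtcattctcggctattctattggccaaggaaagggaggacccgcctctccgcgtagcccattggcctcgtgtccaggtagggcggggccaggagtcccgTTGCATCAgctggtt
Aars: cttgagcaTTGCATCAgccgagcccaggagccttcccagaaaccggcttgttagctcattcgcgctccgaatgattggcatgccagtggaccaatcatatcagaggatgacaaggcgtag
Atf4: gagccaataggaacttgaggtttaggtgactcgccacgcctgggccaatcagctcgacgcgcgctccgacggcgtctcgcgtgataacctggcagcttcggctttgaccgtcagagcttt
The letters are read forward in Asns and as the reverse complement in Gars, Tars and Aars. Over windows from 250 bases before to 50 bases after the start, 12 of 34 members with a RefSeq window held the motif (35.3%), against 279 of 9989 tested genes (2.79%) and 1219 of 27025 genes in all (4.51%). The 12 were 5 of 12 synthetases (Aars, Gars, Iars, Tars and Yars) and 7 of 22 other members (Asns, Chac1, Nupr1, Pycr1, Slc7a11, Trib3 and Vldlr). Of the 12, 7 were called after CGRP at 4 h: besides the 4 shown, these were Iars, Trib3 and Yars, where the motif lies just after the start. All of these but Iars and Trib3 were also called at 8 h. Chac1 was not tested. With or without the motif, 16 of 19 synthetases and 5 of 22 other tested members were called at 4 h, and 9 and 6 at 8 h. Of all tested genes, 16.2% were called at 4 h and 8.67% at 8 h. The element is part of how ATF4 targets were defined, so its frequency among the members is a description, and a match is not a measured binding site.

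The cytosolic synthetases rose together 4 h after CGRP. Of 19, 16 rose and 0 fell (84.2%), against 7.84% of all tested genes higher and 8.37% lower. Fold changes were tested with the quasi-likelihood test of edgeR over all genes, and rose or fell stands for a Benjamini-Hochberg adjusted p under 0.05. The median log2 fold change over the synthetases was 0.46, and over all tested genes it was -0.00. All 19 fold changes were positive, and in 16 of 19 every CGRP library lay above every PBS library, which held for 8.95% of all tested genes (9.9% had every CGRP library below). The 3 that were not called were those of cysteine (Cars), glutamine (Qars) and serine (Sars). Without the 4 libraries with the most genes detected, 13 of 19 were called at 4 h.

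**Figure D1:**
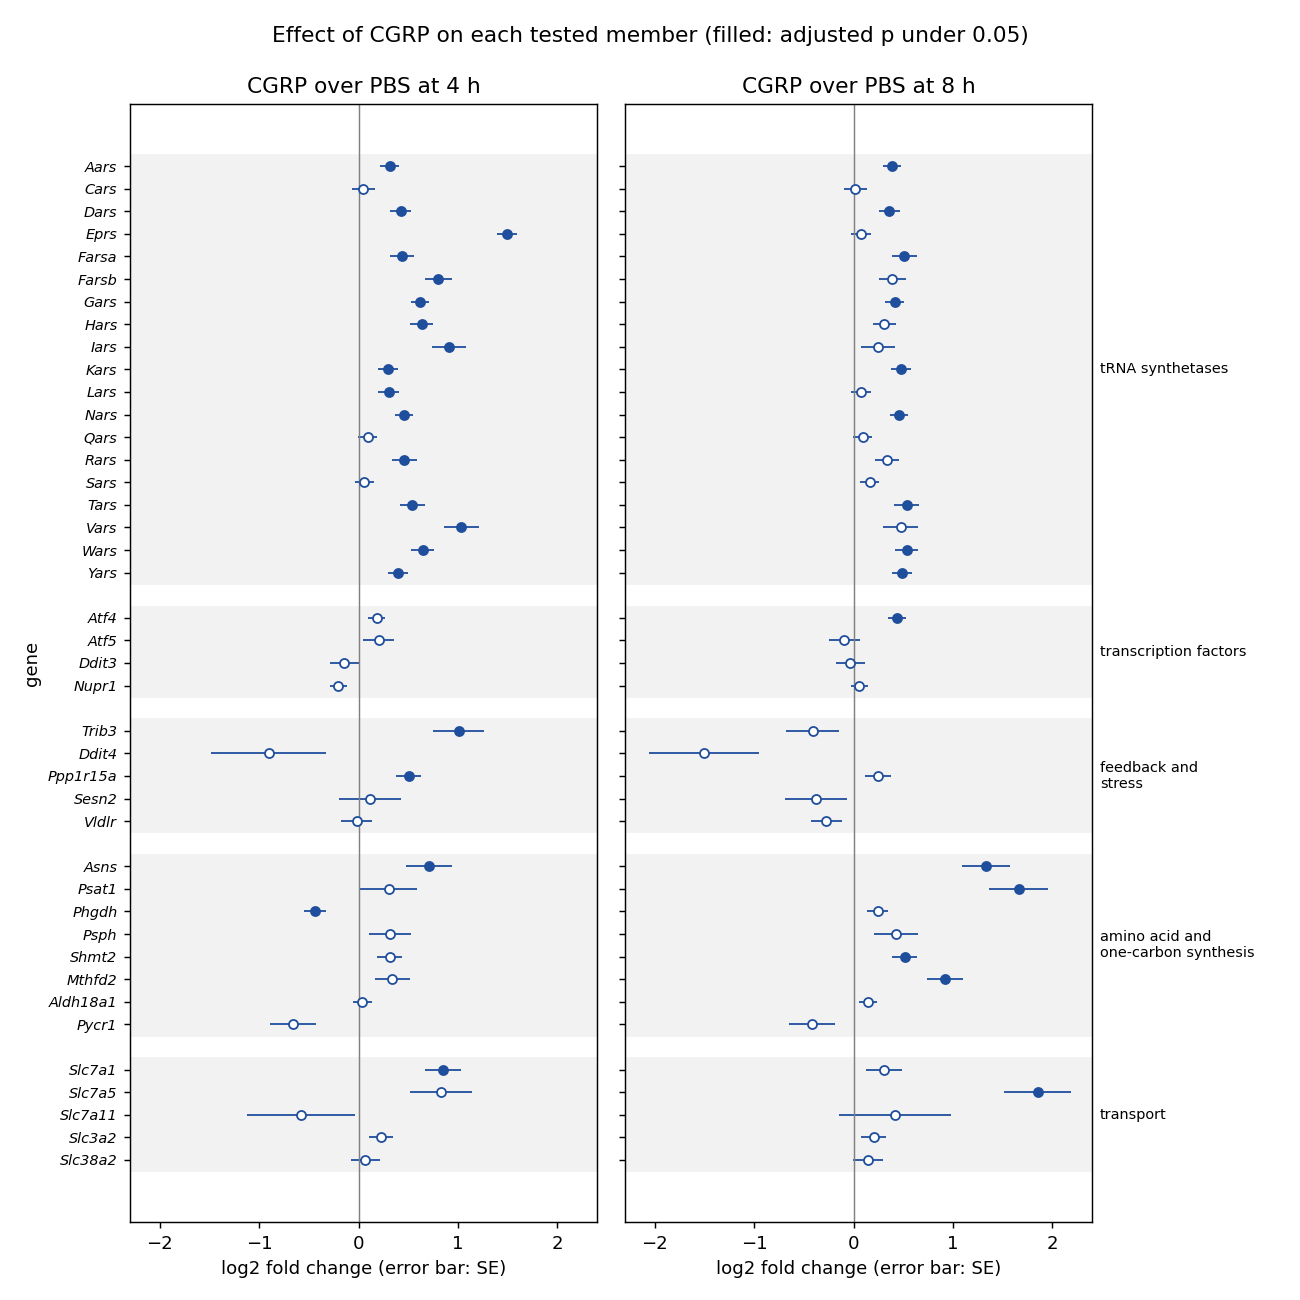
Log2 fold change of each tested member, CGRP over PBS, at 4 h (left) and 8 h (right), with SE bars and genes down the page by role. Filled points have an adjusted p under 0.05; all 19 synthetases lie right of 0 at both times, and Eprs is farthest right at 4 h and near 0 at 8 h.

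Eprs, the bifunctional synthetase of glutamate and proline (ENSMUSG00000026615.14, chr1:185363044-185428360 on the forward strand), showed the largest fold change of the synthetases at 4 h. It had 419, 450.5, 484 and 508 CPM after CGRP, against 167, 155, 188 and 150.1 CPM after PBS. At 8 h it had 193, 148, 161 and 174 CPM after CGRP, against 154, 186, 161 and 139.7 CPM after PBS. The 4 h groups were far apart, with every CGRP library well above every PBS library, and the 8 h groups overlapped. The 4 h means were 465 ± 39.03 CPM after CGRP and 165 ± 17.03 CPM after PBS (SD, n = 4 each), a rise of 2.82-fold (log2 1.496 ± 0.10, adjusted p = 1.63e-09; exact permutation p = 0.0286, which any 4 against 4 libraries without overlap give and which adds nothing to that observation). The fold change at 8 h was 0.08 ± 0.10, adjusted p = 0.713. The effect at 8 h was lower than that at 4 h by a tested difference of -1.42 ± 0.14, adjusted p = 5.49e-06. Leaving out any 1 of the 16 libraries kept the 4 h fold change of Eprs between 1.46 and 1.58. No other annotated gene shares exon bases with Eprs.

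The synthetases of valine (Vars), isoleucine (Iars) and phenylalanine (Farsb, the beta subunit) followed in size at 4 h. Vars had 124, 107, 106 and 122 CPM after CGRP, against 46.6, 33.3, 72.7 and 71.3 CPM after PBS, and its fold change was 1.03 ± 0.18, adjusted p = 0.000743. Iars had 92.7, 72.2, 72.8 and 102 CPM after CGRP, against 60.4, 41.6, 44.9 and 33.7 CPM after PBS, with 0.91 ± 0.17, adjusted p = 0.00117. Farsb had 80.2, 90.5, 68.6 and 106 CPM after CGRP, against 49.02, 58.4, 46.2 and 44.04 CPM after PBS, with 0.80 ± 0.13, adjusted p = 0.000258. In all 3 the 4 h groups did not overlap, and PBS 4 h replicates 1 and 2 were the lowest for Vars. At 8 h Vars had 99.4, 103, 78.7 and 109 CPM after CGRP, against 73.8, 66.9, 67.6 and 71.8 CPM after PBS. Iars then had 54.4, 69.3, 51.97 and 79.7 CPM after CGRP, against 57.8, 61.5, 52.9 and 43.3 CPM after PBS. Farsb had 83.8, 64.2, 53.95 and 63.6 CPM after CGRP, against 49.1, 49.8, 52.1 and 51.5 CPM after PBS. The 8 h groups stayed apart for Vars (0.48 ± 0.18, adjusted p = 0.11) and Farsb (0.39 ± 0.13, adjusted p = 0.0703) and overlapped for Iars (0.24 ± 0.17, adjusted p = 0.446), and none of the 3 was called. About 9.47% of the exon bases of Farsb are shared with Sgpp2 on the other strand, so without strand their reads cannot be told apart there.

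Tryptophan (Wars), histidine (Hars), glycine (Gars) and threonine (Tars) synthetases rose by 0.54 to 0.65 on the log2 scale at 4 h. Wars had 135, 117, 94.5 and 118 CPM after CGRP, against 73.5, 70, 76.5 and 77.4 CPM after PBS (0.65 ± 0.11, adjusted p = 0.000501). Hars had 119, 116, 97.2 and 129.5 CPM after CGRP, against 74.4, 72.8, 79.7 and 70.2 CPM after PBS (0.64 ± 0.11, adjusted p = 0.000557). Gars had 245, 218, 204 and 232 CPM after CGRP, against 132, 159, 153 and 142 CPM after PBS (0.62 ± 0.09, adjusted p = 9.10e-05). Every CGRP library was above every PBS library in these 3 genes, and Gars was the most precisely measured of them. Tars had 178, 181, 168 and 223 CPM after CGRP, against 141, 128, 129 and 118 CPM after PBS (0.54 ± 0.12, adjusted p = 0.00371), also without overlap. Hars shares 7.97% of its exon bases with Hars2 on the other strand.

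At 8 h Wars had 118, 83.5, 80.2 and 94.5 CPM after CGRP, against 59.7, 65.9, 65.5 and 69.2 CPM after PBS (0.53 ± 0.12, adjusted p = 0.00602). Gars had 206, 171, 159 and 194 CPM after CGRP, against 144, 147, 129 and 128 CPM after PBS (0.41 ± 0.09, adjusted p = 0.00734). Tars had 203, 167, 138 and 184 CPM after CGRP, against 125, 137, 124 and 92.04 CPM after PBS (0.53 ± 0.12, adjusted p = 0.00867). These 3 were called again, without overlap of the groups. Hars had 108, 71.1, 80.3 and 91.5 CPM after CGRP, against 77.9, 71.02, 72.8 and 61.9 CPM after PBS, where replicate 2 after CGRP lay inside the PBS range, and was not called (0.31 ± 0.12, adjusted p = 0.102).

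A lower tier of rises at 4 h comprised the synthetases of asparagine (Nars), arginine (Rars), phenylalanine (Farsa, the alpha subunit), aspartate (Dars) and tyrosine (Yars). Nars had 212, 206, 189.7 and 246 CPM after CGRP, against 152, 162, 156 and 152 CPM after PBS (0.46 ± 0.09, adjusted p = 0.00157). Rars had 78.8, 72.1, 62.8 and 88.8 CPM after CGRP, against 53.01, 59.9, 58.5 and 48.2 CPM after PBS (0.46 ± 0.12, adjusted p = 0.0115). Farsa had 72.3, 80.3, 66.6 and 78.5 CPM after CGRP, against 57.9, 62.3, 49.7 and 50.4 CPM after PBS (0.43 ± 0.12, adjusted p = 0.0172). These 3 rose by nearly the same amount, Nars at a higher CPM than Rars and Farsa. Dars had 105, 94.9, 90.7 and 109 CPM after CGRP, against 66.1, 86.8, 68.4 and 76.01 CPM after PBS (0.42 ± 0.11, adjusted p = 0.00859). Yars had 117, 117, 97.8 and 137 CPM after CGRP, against 83.5, 94.02, 91.1 and 86.5 CPM after PBS (0.40 ± 0.10, adjusted p = 0.00706). The groups overlapped in none of the 5. The call of Rars was lost without CGRP 4 h replicate 4 (0.39, adjusted p = 0.0562).

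At 8 h Nars had 237, 178, 176 and 199 CPM after CGRP, against 139, 145, 148 and 144 CPM after PBS (0.46 ± 0.09, adjusted p = 0.00395). Farsa had 67.4, 63.1, 55.7 and 83.04 CPM after CGRP, against 50.4, 50.96, 37.8 and 49.2 CPM after PBS (0.51 ± 0.12, adjusted p = 0.0121). Yars had 125, 106, 96.3 and 101 CPM after CGRP, against 75.3, 75.7, 79.3 and 74.98 CPM after PBS (0.49 ± 0.10, adjusted p = 0.00379). These 3 rose again with no overlap, and the PBS values of Yars lay close together. Dars had 99.2, 77.3, 73.2 and 93.3 CPM after CGRP, against 65.01, 64.4, 72.6 and 65.03 CPM after PBS (0.36 ± 0.11, adjusted p = 0.0399), and Rars had 82.2, 56.9, 67.3 and 61.8 CPM after CGRP, against 54.1, 49.4, 60.2 and 49.3 CPM after PBS, which overlapped and was not called (0.33 ± 0.12, adjusted p = 0.0941). Without CGRP 8 h replicate 4 the call of Farsa was lost (0.41, adjusted p = 0.0583). That of Dars was lost without CGRP 8 h replicate 1 or 4 or PBS 8 h replicate 1, 2 or 4 (0.28 to 0.36, adjusted p = 0.0835 to 0.165).

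The smallest rises called at 4 h were those of alanine (Aars), leucine (Lars) and lysine (Kars). Aars had 137, 113, 101 and 112 CPM after CGRP, against 82.8, 93.8, 97.3 and 98.6 CPM after PBS (0.31 ± 0.09, adjusted p = 0.0258). Lars had 79.7, 79.8, 80.04 and 83.4 CPM after CGRP, against 70.1, 63.5, 75 and 53.6 CPM after PBS (0.30 ± 0.10, adjusted p = 0.0467). Kars had 149, 150.1, 131 and 159.9 CPM after CGRP, against 107, 128, 127 and 118 CPM after PBS (0.30 ± 0.10, adjusted p = 0.0455). All 3 separated the groups by a narrow gap, and each call was sensitive to single libraries. Aars lost it without CGRP 4 h replicate 1 or PBS 4 h replicate 1 or 2 (0.24 to 0.32, adjusted p = 0.0521 to 0.104). Lars lost it without any 1 of the 4 CGRP 4 h libraries or PBS 4 h replicate 2 or 4 (0.22 to 0.33, adjusted p = 0.0549 to 0.156). Kars lost it without CGRP 4 h replicate 1, 2 or 4, any 1 of the 4 PBS 4 h libraries or PBS 8 h replicate 1 or 2 (0.26 to 0.34, adjusted p = 0.0501 to 0.136). With upper-quartile scaling the adjusted p of Kars was 0.0853 and that of Lars 0.0830.

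At 8 h Aars had 138, 142, 124 and 130 CPM after CGRP, against 103, 111, 93.4 and 101 CPM after PBS (0.39 ± 0.09, adjusted p = 0.0129). Kars had 169, 119.6, 132 and 159.5 CPM after CGRP, against 104, 104, 96.9 and 112 CPM after PBS (0.48 ± 0.10, adjusted p = 0.0053). Both were called and did not overlap. Lars had 63.7, 65.5, 67.5 and 75.7 CPM after CGRP, against 64.2, 72.3, 65.2 and 56.6 CPM after PBS, overlapping throughout (0.07 ± 0.10, adjusted p = 0.735). Aars shares 14.3% of its exon bases with Exosc6 on the same strand.

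The synthetases not called at either time were close to PBS levels. Cars had 56.6, 76.6, 60.4 and 74.7 CPM after CGRP, against 67.7, 69.2, 57.7 and 64.5 CPM after PBS at 4 h (0.05 ± 0.11, adjusted p = 0.835). Qars had 102, 79.8, 81.2 and 83.5 CPM after CGRP, against 80.4, 83.9, 79.9 and 80.6 CPM after PBS (0.09 ± 0.10, adjusted p = 0.588). Sars had 152, 122, 133 and 152 CPM after CGRP, against 131, 139, 119.8 and 146 CPM after PBS (0.06 ± 0.10, adjusted p = 0.752). Their groups overlapped at 4 h, and their fold changes at 8 h were 0.02 for Cars, 0.09 for Qars and 0.16 for Sars, with adjusted p of 0.955, 0.651 and 0.354.

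By 8 h, 9 of the 19 synthetases rose and 0 fell (47.4%), against 5% of all tested genes higher and 3.67% lower. The 9 were Aars, Dars, Farsa, Gars, Kars, Nars, Tars, Wars and Yars, and all 9 were among the 16 of 4 h (100% of the 8 h calls and 56.2% of the 4 h calls). The median log2 fold change was 0.39, against -0.02 over all tested genes, and all 19 were again positive. The groups did not overlap in 11 of 19, against 8.08% of all tested genes with every CGRP library above every PBS library and 6.75% with every one below. At 8 h 57.7% of the calls over all genes were higher after CGRP, and 45% were with upper-quartile scaling. Without the 4 libraries with the most genes detected, 0 of 19 were called at 8 h at an unchanged median of 0.39, and with PBS 8 h replicate 4 as the lone PBS 8 h library 1 was called at a median of 0.45, the lone library being assumed to vary like the other groups.

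The test of the difference between the effects at 8 h and 4 h called 1 of 19 synthetases, Eprs, against 1.12% of all tested genes. For the other 18 the p missed the threshold, which does not show that the effects were equal. The nearest were Iars (-0.67 ± 0.24, adjusted p = 0.19), Farsb (-0.41 ± 0.19, adjusted p = 0.311) and Vars (-0.56 ± 0.25, adjusted p = 0.312), all lower at 8 h than at 4 h. Nars (-0.00 ± 0.13) and Tars (-0.01 ± 0.17) had almost the same effect at both times.

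**Figure D2:**
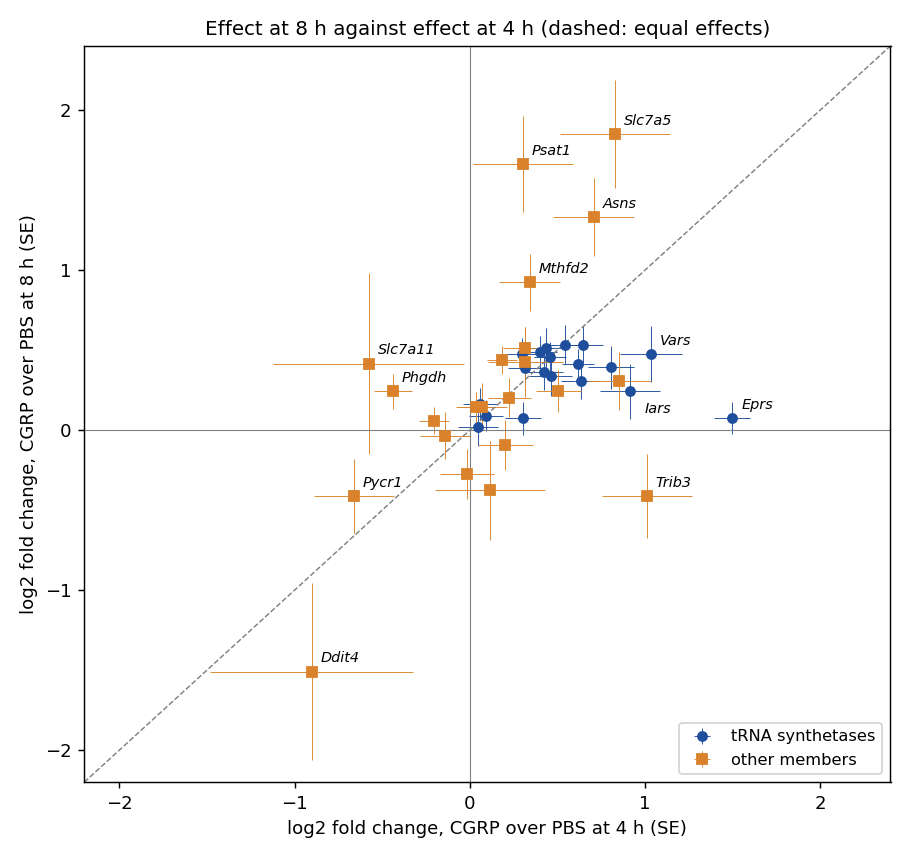
Log2 fold change of each tested member at 8 h (y axis) against 4 h (x axis), CGRP over PBS, with SE bars; blue circles are synthetases, orange squares the other members, and the dashed line marks equal effects. Eprs and Trib3 lie far below the line, and Psat1, Slc7a5 and Asns lie above it.

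Summed over the 19 synthetases, the level was 2613 ± 199 CPM in CGRP 4 h libraries and 1727 ± 44.8 CPM in PBS 4 h libraries (SD, n = 4 each). At 8 h the sum was 2092 ± 218 CPM after CGRP and 1653 ± 56.3 CPM after PBS. The lowest CGRP library was above the highest PBS library at both times. Without Eprs, the sums were 2148 ± 194 CPM after CGRP and 1562 ± 38.0 CPM after PBS at 4 h, and 1923 ± 201 CPM after CGRP and 1492 ± 37.5 CPM after PBS at 8 h. CPM are shares of a library: a level here is relative to the other transcripts of the same cells, and in bulk RNA fewer cells of a type and less RNA per cell cannot be told apart.

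**Figure D3:**
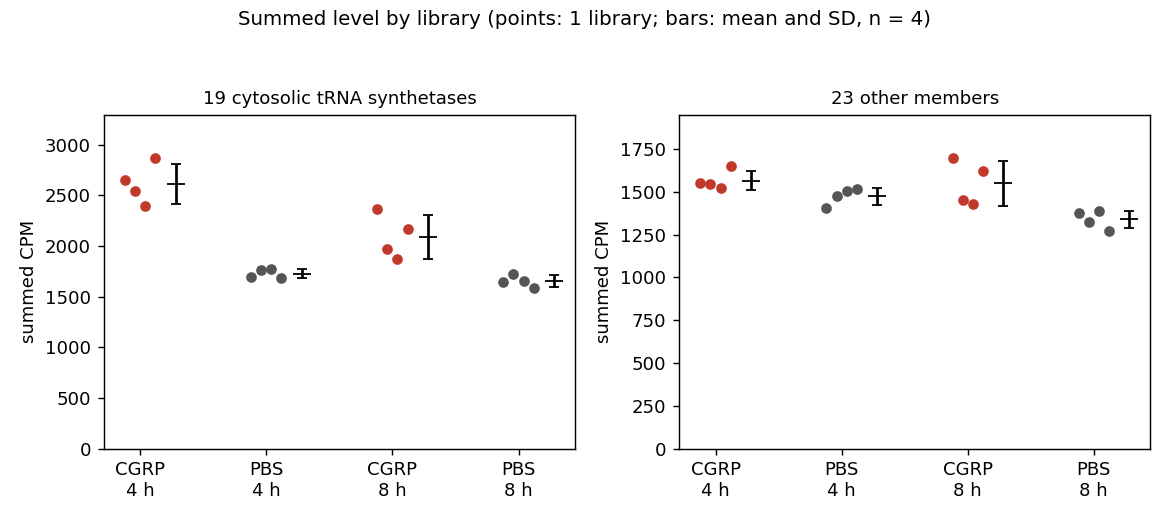
Summed CPM of the 19 synthetases (left) and of the 23 other members, Chac1 included (right), in each library, with mean and SD beside the points (n = 4). The synthetase sum is 2390 to 2865 CPM in CGRP 4 h libraries and 1681 to 1770 CPM in PBS 4 h libraries.

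The multi-synthetase complex of animal cells holds 7 of these enzymes (Eprs, Iars, Lars, Qars, Rars, Kars and Dars), a grouping made after their values were seen. Of the 7, 6 rose at 4 h and 2 at 8 h, and of the 12 outside the complex 10 rose at 4 h and 7 at 8 h. Of all tested genes, 7.84% were called higher at 4 h and 5% at 8 h. Whether enzymes inside and outside the complex differ was not tested. Median log2 fold changes were 0.42 inside and 0.50 outside at 4 h, and 0.24 inside and 0.43 outside at 8 h. Per kilobase of the longest coding transcript, synthetase levels after PBS at 4 h ran between 10.2 CPM for Iars and 61.5 CPM for Gars. At 4 h after CGRP Eprs reached 94.9 CPM per kilobase and Gars 94.5.

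Of 4 genes for the scaffold of the complex and for tRNA export, 2 rose at 4 h and 1 at 8 h. These were 50% and 25%, against 7.84% and 5% of all tested genes higher. Eef1e1, a scaffold subunit, rose at both times (1.098 ± 0.23, adjusted p = 0.00277 at 4 h; 0.99 ± 0.24, adjusted p = 0.0129 at 8 h). Xpot, the tRNA export receptor, rose at 4 h (0.64 ± 0.17, adjusted p = 0.0105) and had 0.36 ± 0.17, adjusted p = 0.211 at 8 h. Of 20 genes for tRNA charging in mitochondria, 3 rose and 0 fell at 4 h (15%, against 16.2% of all tested genes called in either direction and 7.84% called higher) and 0 were called at 8 h, where 1 had an unadjusted p under 0.05. The 3 were Yars2 (1.14 ± 0.33, adjusted p = 0.0206), Rars2 (0.50 ± 0.16, adjusted p = 0.029) and Iars2 (0.53 ± 0.17, adjusted p = 0.0392), and the list medians were 0.27 at 4 h and 0.07 at 8 h. Whether the mitochondrial and cytosolic lists differ was not tested.

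Of the 4 transcription factors of the response, 1 rose, Atf4 at 8 h (25%, against 5% of all tested genes higher), and 0 were called at 4 h, where 2 had an unadjusted p under 0.05. Atf4 (ENSMUSG00000042406.8, chr15:80255184-80257541 on the forward strand) had 251, 246, 252 and 284 CPM after CGRP, against 210.5, 224, 245 and 229.8 CPM after PBS at 4 h. The lowest CGRP library was just above the highest PBS library, and the fold change was not called (0.18 ± 0.09, adjusted p = 0.162). At 8 h Atf4 had 277, 256, 225 and 294 CPM after CGRP, against 195, 200.5, 207 and 173 CPM after PBS, without overlap, and rose (0.44 ± 0.09, adjusted p = 0.00315). The 2 effects did not differ past the threshold (0.26 ± 0.12, adjusted p = 0.345). These data do not measure the translation of Atf4. Per kilobase of transcript Atf4 stood at 149.6 CPM in CGRP 4 h libraries and 132 CPM in PBS 4 h libraries, and among the members only Nupr1 was higher.

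Atf5, a paralogue of Atf4, had 25 to 42.5 CPM after CGRP and 25.9 to 31.1 CPM after PBS at 4 h (0.20 ± 0.16, adjusted p = 0.431). Ddit3, the pro-apoptotic factor CHOP, had 28.6 to 35.9 CPM after CGRP and 30.7 to 38.8 CPM after PBS (-0.14 ± 0.14, adjusted p = 0.573). Nupr1, a small stress-induced nuclear protein, had 220.1 to 262 CPM after CGRP and 247 to 299 CPM after PBS (-0.20 ± 0.09, adjusted p = 0.113). None of the 3 was called at 8 h either, where their fold changes were -0.09, -0.03 and 0.06.

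Of 5 tested feedback and stress genes, 2 rose and 0 fell at 4 h (40%, against 7.84% of all tested genes higher and 8.37% lower), and 0 were called at 8 h (against 8.67%), where 1 had an unadjusted p under 0.05. Trib3, a pseudokinase that binds ATF4 and restrains it, had 13.8, 12.7, 12.2 and 10.9 CPM after CGRP, against 7.98, 4.37, 8.39 and 4.17 CPM after PBS at 4 h. By 8 h it had 4.25, 5.07, 7.71 and 5.66 CPM after CGRP, against 7.25, 8.20, 5.01 and 9.67 CPM after PBS. The groups did not overlap at 4 h, where Trib3 rose (1.01 ± 0.26, adjusted p = 0.00876), and they overlapped at 8 h (-0.41 ± 0.26, adjusted p = 0.382). The difference between the effects missed the threshold (-1.42 ± 0.37, adjusted p = 0.0617). Counts were low, 82 to 136 reads per CGRP 4 h library and 40 to 65 per PBS 4 h library. Without the 4 libraries with the most genes detected the 4 h fold change was 0.87 (adjusted p = 0.0588).

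Ppp1r15a, which brings a phosphatase to eIF2 and so ends the response, had 92.4, 95.1, 78.2 and 99.6 CPM after CGRP, against 60.3, 60.4, 62.1 and 74.5 CPM after PBS at 4 h. Its 8 h levels were 85.1, 62.6, 63.7 and 79.2 CPM after CGRP, against 60.4, 51.8, 78.7 and 54.4 CPM after PBS. All CGRP libraries exceeded all PBS libraries at 4 h (0.50 ± 0.13, adjusted p = 0.00884) and not at 8 h (0.24 ± 0.13, adjusted p = 0.273).

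Ddit4, an inhibitor of mTORC1, varied most among the stress genes, with 6.70, 4.84, 8.42 and 5.99 CPM after CGRP, against 7.70, 6.55, 7.75 and 26.03 CPM after PBS at 4 h. At 8 h Ddit4 had 3.03, 7.55, 14.5 and 11.8 CPM after CGRP, against 34.9, 9.96, 18.7 and 40.2 CPM after PBS. The fold changes were negative with wide errors and were not called (-0.90 ± 0.58, adjusted p = 0.345 at 4 h; -1.51 ± 0.55, adjusted p = 0.118 at 8 h). Sesn2, a leucine sensor, had 3.46 to 9.05 CPM after CGRP and 4.28 to 7.75 CPM after PBS at 4 h (0.12 ± 0.31, adjusted p = 0.857). Vldlr, a lipoprotein receptor, had 135 to 189.9 CPM after CGRP and 137 to 202 CPM after PBS (-0.02 ± 0.15, adjusted p = 0.96). Neither was called at 8 h (-0.38 ± 0.31, adjusted p = 0.527 for Sesn2; -0.27 ± 0.16, adjusted p = 0.322 for Vldlr). Chac1, which degrades glutathione, had 0 to 3 reads in CGRP 4 h libraries and 3 to 15 reads in PBS 4 h libraries, and was not tested.

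Over the 22 members that are not synthetases, 4 rose and 1 fell at 4 h (22.7% called, against 16.2% of all tested genes), and 6 rose and 0 fell at 8 h (27.3%, against 8.67%). Their median log2 fold change was 0.19 at 4 h and 0.22 at 8 h. Asns was called at both times, 20% of the 5 calls at 4 h and 16.7% of the 6 at 8 h. Without the 4 libraries with the most genes detected, 4 were called at 4 h and 2 at 8 h, and with 1 PBS 8 h library 1 was called at 8 h.

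**Figure D4:**
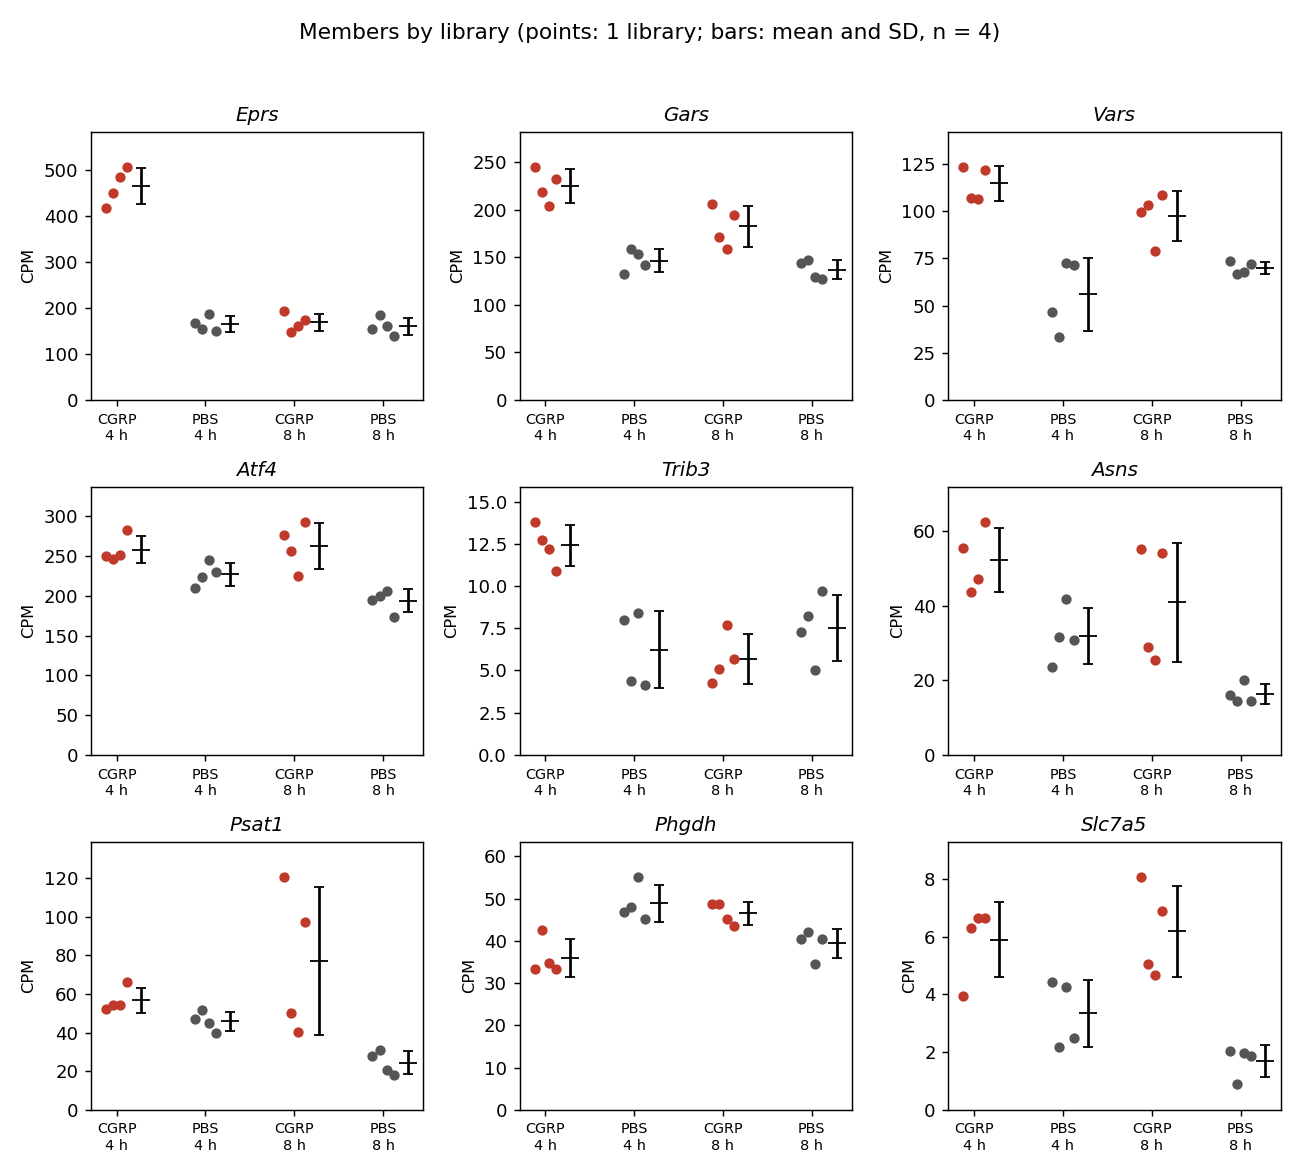
CPM of 9 members in each library, 1 point per library, with mean and SD (n = 4) beside the points; each y axis starts at 0. Eprs and Trib3 are high in CGRP 4 h libraries only among the 4 groups, and Asns, Psat1 and Slc7a5 are low in PBS 8 h libraries.

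Of 8 genes of amino acid and one-carbon synthesis, 1 rose and 1 fell at 4 h (25%, against 16.2% of all tested genes), and 4 rose and 0 fell at 8 h (50%, against 8.67%). The test of the difference between the times called 1 of the 8, Phgdh. After PBS all 8 had lower fitted levels at 8 h than at 4 h (median log2 -0.33), none of them called in the main edgeR fit, 5 with an unadjusted p under 0.05. Asns, asparagine synthetase (ENSMUSG00000029752.12, chr6:7675169-7693254 on the reverse strand), had 55.5, 43.5, 47.2 and 62.5 CPM after CGRP, against 23.5, 31.6, 41.8 and 30.8 CPM after PBS at 4 h. The 8 h values were 55.3, 28.8, 25.5 and 53.98 CPM after CGRP, against 16.03, 14.3, 20.1 and 14.4 CPM after PBS. The groups did not overlap at either time, and at 8 h replicates 1 and 4 after CGRP were well above replicates 2 and 3. Asns rose at 4 h (0.71 ± 0.23, adjusted p = 0.045) and at 8 h (1.33 ± 0.24, adjusted p = 0.00304). The 4 h call was lost without CGRP 4 h replicate 1, 3 or 4, PBS 4 h replicate 1, 2 or 4 or any 1 of the PBS 8 h libraries (0.60 to 0.77, adjusted p = 0.0512 to 0.140), and with upper-quartile scaling (adjusted p = 0.0566).

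The serine pathway runs through Phgdh, Psat1 and Psph in that order. Psat1, the aminotransferase, had 52, 54.2, 54.03 and 66.2 CPM after CGRP, against 47.02, 51.5, 44.9 and 39.9 CPM after PBS at 4 h (0.30 ± 0.28, adjusted p = 0.541). Levels at 8 h were 121, 50.2, 40.4 and 97.1 CPM after CGRP, against 27.9, 30.8, 20.8 and 17.9 CPM after PBS. The 8 h groups did not overlap, and CGRP replicates 1 and 4 were again the high ones. Psat1 rose at 8 h (1.66 ± 0.30, adjusted p = 0.00425); in a fit of the 8 libraries of that time alone the adjusted p was 0.0565. Phgdh, the dehydrogenase of the first step, had 33.3, 42.7, 34.8 and 33.2 CPM after CGRP, against 46.9, 48.05, 55.2 and 45.3 CPM after PBS at 4 h. At 8 h it had 48.7, 48.8, 45.2 and 43.4 CPM after CGRP, against 40.5, 42.2, 34.5 and 40.4 CPM after PBS. Every CGRP library was below every PBS library at 4 h and above every PBS library at 8 h.

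Phgdh fell at 4 h (-0.44 ± 0.11, adjusted p = 0.00766) and was not called at 8 h (0.24 ± 0.11, adjusted p = 0.188). The effects of Phgdh at 8 h and 4 h differed (0.68 ± 0.15, adjusted p = 0.0285). That call was lost on leaving out any 1 of 10 libraries (CGRP 4 h replicates 1, 3 and 4, PBS 4 h replicates 2 and 3, CGRP 8 h replicates 1 and 2, PBS 8 h replicates 1, 3 and 4; 0.62 to 0.69, adjusted p = 0.0503 to 0.0727). Psph, the phosphatase of the last step, had 14.7 to 19.4 CPM after CGRP and 11.8 to 17.8 CPM after PBS at 4 h and was called at neither time (0.32 ± 0.21, adjusted p = 0.356 at 4 h; 0.42 ± 0.22, adjusted p = 0.261 at 8 h). Psph shares 10.4% of its exon bases with Cct6a on the other strand.

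Shmt2 and Mthfd2, mitochondrial enzymes that pass on the carbon unit of serine, rose at 8 h. Mthfd2, a methylenetetrahydrofolate dehydrogenase, had 53.1, 38.8, 35.2 and 42.7 CPM after CGRP, against 28.5, 28.4, 14.6 and 17.9 CPM after PBS at 8 h. Levels at 4 h were 45.9, 39.5, 36.4 and 41.6 CPM after CGRP, against 26.8, 35.05, 36.8 and 30.4 CPM after PBS. The 8 h groups did not overlap (0.92 ± 0.18, adjusted p = 0.00303), and the 4 h groups overlapped through CGRP replicate 3 and PBS replicate 3 and the fold change was not called (0.34 ± 0.18, adjusted p = 0.205). Shmt2, the serine hydroxymethyltransferase of mitochondria, had 102, 72.9, 66.5 and 73.1 CPM after CGRP, against 53.8, 61.1, 50.7 and 54.95 CPM after PBS at 8 h. At 4 h it had 65.7, 73.4, 67.7 and 73.9 CPM after CGRP, against 54.01, 63.1, 63.2 and 45.1 CPM after PBS. Shmt2 rose at 8 h (0.52 ± 0.13, adjusted p = 0.013) and not past the threshold at 4 h (0.32 ± 0.13, adjusted p = 0.0917), although neither pair of groups overlapped. Without CGRP 8 h replicate 1 the 8 h call of Shmt2 was lost (0.36, adjusted p = 0.0767).

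The 2 genes of proline synthesis were called at neither time. Aldh18a1, of its first step, had 141 to 173 CPM after CGRP and 133 to 167 CPM after PBS at 4 h (0.04 ± 0.09, adjusted p = 0.844). Pycr1, of its last step, had 22.8, 39.7, 48.4 and 35.1 CPM after CGRP, against 66.7, 64.4, 49.2 and 49.9 CPM after PBS at 4 h. The 4 h groups of Pycr1 did not overlap, with CGRP lower, and the fold change stopped short of the threshold (-0.66 ± 0.23, adjusted p = 0.0621). Pycr1 was called lower with DESeq2 (adjusted p = 0.0203), with no filter on low counts (0.00173), in a fit of the 8 libraries of that time alone (0.0450) and without the 4 libraries with the most genes detected (0.0122). At 8 h Pycr1 had -0.41 ± 0.23, adjusted p = 0.317 and Aldh18a1 0.15 ± 0.09, adjusted p = 0.39.

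Of 5 amino acid transporters, 1 rose at 4 h, Slc7a1, and 1 at 8 h, Slc7a5 (20% each, against 7.84% and 5% of all tested genes higher). Slc7a1, the importer of arginine and lysine, had 32.6, 31.6, 34.4 and 36.7 CPM after CGRP, against 13.8, 18.5, 21.9 and 20.4 CPM after PBS at 4 h. By 8 h it had 28.6, 27.4, 18.5 and 27.99 CPM after CGRP, against 23.5, 22.4, 24.1 and 12.8 CPM after PBS. The groups were apart at 4 h (0.85 ± 0.18, adjusted p = 0.00242) and overlapped at 8 h (0.31 ± 0.18, adjusted p = 0.344), and the difference of effects was -0.55 ± 0.26, adjusted p = 0.33. Slc7a5, the light chain of the importer of large neutral amino acids, had 3.96, 6.29, 6.66 and 6.65 CPM after CGRP, against 4.42, 2.18, 4.26 and 2.499 CPM after PBS at 4 h. Its 8 h levels were 8.09, 5.07, 4.69 and 6.88 CPM after CGRP, against 2.04, 0.879, 1.98 and 1.88 CPM after PBS. The 4 h groups overlapped through CGRP replicate 1 and PBS replicates 1 and 3 (0.83 ± 0.31, adjusted p = 0.0747). Slc7a5 rose at 8 h by 3.65-fold (log2 1.85 ± 0.34, adjusted p = 0.00165), on 45 to 80 reads per CGRP library and 6 to 16 per PBS library.

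Its heavy chain, Slc3a2, had 139 to 196 CPM after CGRP and 122 to 149 CPM after PBS at 4 h and was called at neither time (0.23 ± 0.12, adjusted p = 0.236 at 4 h; 0.20 ± 0.12, adjusted p = 0.356 at 8 h). Slc38a2, an importer of small neutral amino acids, had 50.9 to 78.8 CPM after CGRP and 51.7 to 75.7 CPM after PBS at 4 h (0.07 ± 0.15, adjusted p = 0.822), and 0.15 ± 0.15, adjusted p = 0.626 at 8 h. Slc7a11, which exchanges cystine for glutamate, had 3 to 10 reads in CGRP 4 h libraries and 7 to 17 reads in PBS 4 h libraries, too few for a fold change narrower than an SE of 0.55 (-0.58 ± 0.55, adjusted p = 0.536).

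In mice given PBS, the members were compared between 8 h and 4 h, a contrast that shares its libraries with both effects above. None of the 41 was called in the main edgeR fit (0.516% of all tested genes were), while 8 had an unadjusted p under 0.05. An edgeR fit of the 8 PBS libraries alone called Asns (adjusted p = 0.0158) and Psat1 (0.0123). With no filter on low counts edgeR called Asns (adjusted p = 3.48e-07) and Mthfd2 (0.0193). DESeq2 called 1, Asns (adjusted p = 0.00493). Of the 6 members outside the synthetases that rose at 8 h after CGRP, 4 had lower PBS levels at 8 h than at 4 h. The difference exceeded 0.5 on the log2 scale and was short of the threshold in the main fit. Asns had -0.98 ± 0.25, adjusted p = 0.0845. For Psat1 the value was -0.91 ± 0.30, adjusted p = 0.199. Mthfd2 had -0.53 ± 0.18, adjusted p = 0.197. Slc7a5 had -0.95 ± 0.35, adjusted p = 0.223. Asns averaged 40.9 ± 15.9 CPM in CGRP 8 h libraries, 16.2 ± 2.68 CPM in PBS 8 h libraries and 31.9 ± 7.53 CPM in PBS 4 h libraries (SD, n = 4 each). The synthetases had a median of -0.07 in this contrast.

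Other genes around the pathway were counted from lists, against 16.2% of all tested genes called at 4 h and 8.67% at 8 h. Of 15 tested genes for eIF2 kinases, eIF2 and its exchange factor eIF2B, 5 rose and 0 fell at 4 h (33.3%), and 2 rose and 0 fell at 8 h (13.3%). Eif2b3, an eIF2B subunit, rose at 4 h (0.96 ± 0.12, adjusted p = 1.10e-05), with 0.30 ± 0.12, adjusted p = 0.12 at 8 h. Eif2s1, the eIF2 subunit that is phosphorylated, rose at 4 h (0.73 ± 0.11, adjusted p = 0.000133) and 8 h (0.68 ± 0.11, adjusted p = 0.000848). Eif2s2, the beta subunit, rose at 8 h (0.63 ± 0.12, adjusted p = 0.00178), with 0.30 ± 0.11, adjusted p = 0.0799 at 4 h. The other 3 of the 4 h calls were Eif2b1, Eif2s3x and the kinase gene Eif2ak1, named after their values were seen.

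Of 15 tested further targets and partners of ATF4, 4 rose and 2 fell at 4 h (40%), and 2 rose and 1 fell at 8 h (20%). Herpud1, a factor of protein degradation at the endoplasmic reticulum, fell at 4 h (-0.30 ± 0.09, adjusted p = 0.0211) and 8 h (-0.53 ± 0.09, adjusted p = 0.000744). Pck2, mitochondrial phosphoenolpyruvate carboxykinase, fell at 4 h (-0.52 ± 0.10, adjusted p = 0.00079), and Gpt2, an alanine aminotransferase, rose (0.95 ± 0.21, adjusted p = 0.00444). Named after their values were seen, Atf3 rose at 4 h (0.70 ± 0.16, adjusted p = 0.00528), and Bcat1 and the translation repressor gene Eif4ebp1 rose at both times. The effect on Atf3 was lower at 8 h than at 4 h (-1.17 ± 0.24, adjusted p = 0.0187).

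Of 17 tested other amino acid transporters, 2 rose and 1 fell at 4 h (17.6%) and 0 rose and 1 fell at 8 h (5.88%). These shares were near those of all tested genes, 16.2% at 4 h and 8.67% at 8 h. Slc7a6 rose at 4 h (0.53 ± 0.12, adjusted p = 0.00371), as did Slc38a1, named after its values were seen (2.501 ± 0.81, adjusted p = 0.0385). Slc6a6, the taurine importer, fell at 4 h (-0.80 ± 0.23, adjusted p = 0.0263), and Slc43a1, an importer of branched-chain amino acids, fell at 8 h (-0.66 ± 0.13, adjusted p = 0.00395). A list of 12 tested genes that sense amino acids or otherwise act upstream of mTORC1 was also near those shares, with 16.7% called at 4 h and 8.33% at 8 h. Rheb rose (0.42 ± 0.10, adjusted p = 0.00756) and Tsc2 fell (-0.39 ± 0.09, adjusted p = 0.00387) at 4 h, and Sesn1 fell at 8 h (-0.58 ± 0.12, adjusted p = 0.00311). Of 18 chaperones and targets of the other stress-response arms of the endoplasmic reticulum, 1 rose at 4 h (5.56%), Xbp1 (0.55 ± 0.13, adjusted p = 0.00686), and 0 were called at 8 h, where 0 had an unadjusted p under 0.05.

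Markers of other cells were set beside these results. The summed pericyte and smooth muscle markers, 8 genes, were 32.2 to 69.1 CPM in CGRP 4 h libraries and 71.9 to 137 CPM in PBS 4 h libraries, without overlap. Most of the sum was Cspg4, with 34.9 of a mean 52.2 CPM after CGRP and 79.8 of 105 CPM after PBS. Kcnj8 lay the other way, with 5.83 CPM after CGRP and 4.26 CPM after PBS, and was not called. Of the 6 tested, 2 fell at 4 h (33.3%, against 16.2% of all tested genes), Cspg4 (-1.20 ± 0.20, adjusted p = 0.000663) and Myh11 (-2.60 ± 0.68, adjusted p = 0.0111). Myh11 was low, with 4 h means of 0.373 CPM after CGRP and 2.28 CPM after PBS. None of the 8 was at 0 in the CGRP 4 h group, and Rgs5, which defines pericytes, was under 1 CPM in the mean of each group. At 8 h these sums were 99.7 to 133 CPM after CGRP and 116 to 173 CPM after PBS. Of 13 stromal markers, 2 rose and 6 fell at 4 h (61.5%, against 16.2% of all tested genes). At 8 h, 2 rose and 4 fell (46.2%, against 8.67%), where the 2 that rose were Ly6a and Pdpn, named after their values were seen. Among those that fell were Smoc2 (-0.59 ± 0.08, adjusted p = 5.02e-05 at 4 h; -0.42 ± 0.08, adjusted p = 0.00298 at 8 h), Pdgfra (-0.40 ± 0.07, adjusted p = 0.000219; -0.28 ± 0.07, adjusted p = 0.0096) and Pdgfrb, called at 4 h alone (-0.65 ± 0.11, adjusted p = 0.00044; -0.14 ± 0.11, adjusted p = 0.493). Endothelial markers summed to 78.5 to 145 CPM over all libraries, nearly all of it Tek, and erythroid genes to 0.970 to 47.6 CPM, and none of the 2 and 1 tested genes of these lists was called. Muscle fibre and satellite cell markers summed to 177 to 212 CPM in CGRP 8 h libraries and 196 to 287 CPM in PBS 8 h libraries. Of 7 tested, 1 fell at 8 h (14.3%, against 8.67% of all tested genes), Acta1 (-0.78 ± 0.19, adjusted p = 0.0204), while Myf5 was at 0 in every group. The part of these shifts in the rise of the synthetases and of Asns, Psat1 and Slc7a5 was not tested.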

How the data were processed

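The deposited table holds whole-number read counts per gene symbol, which the authors made with STAR 2.5.4 on mm10 and featureCounts, per the submitters' processing notes. Annotation, strand setting and treatment of multiply mapped reads are not given in the sources. With edgeR 4.0.16 (R 4.3.3), filterByExpr over the 4 groups kept 13949 genes, libraries were scaled with TMM, and a robust quasi-likelihood fit of the 16 libraries estimated a mean for each group, leaving 12 residual degrees of freedom. Contrasts were CGRP against PBS at 4 h and 8 h, their difference, and 8 h against 4 h after PBS. P-values are two-sided, adjusted over all tested genes and called under 0.05. CPM use TMM-scaled library sizes; errors are SE of log2 fold changes and SD of CPM. The common biological coefficient of variation was 17.4%. Exact permutation tests used log2 CPM with a prior count of 0.5.

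Replicates of a group were never 1 library deposited more than once: the chi-square of their counts was 6.52 to 22.7 times its degrees of freedom over 24 pairs. The labels call them biological replicates; whether they come from separate mice is not given, so p-values measure the spread between these samples. DESeq2 1.42.0, other scalings and filters, a replicate block and leaving out libraries were alternatives. The members and lists were chosen with earlier results of these data known. Values in every library are given for members called at 4 h, 8 h or in the difference and for Atf4, and up to 3 called genes with the smallest p are named from each other list. Promoters are from RefSeq, GRCm38.p6, and matched 34 members; positions and shared exons are from GENCODE for mm10.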

Additional observations from a re-analysis of the deposited data

Results flagged for a closer look

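Within each group of 4 libraries, the highest and lowest value of each tested member were checked for standing far from the other 3. Of 164 groups, 17 held such a value, and chance gives about 1 in 20.

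PBS 8 h replicate 3 gave 4 of them. Dars was high at 72.6 CPM, Sars at 142 CPM and Yars at 79.3 CPM, and Farsa was low at 37.8 CPM. This library had the highest Gm10800 share, 2.45%. In CGRP 4 h replicate 4, Lars at 83.4 CPM, Atf4 at 284 CPM and Psat1 at 66.2 CPM were high. In PBS 4 h replicate 4, Ddit4 at 26.0 CPM and Ppp1r15a at 74.5 CPM were high.

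Qars was high in CGRP 4 h replicate 1 (102 CPM) and in PBS 4 h replicate 2 (83.9 CPM). Slc7a5 was low in CGRP 4 h replicate 1 (3.96 CPM) and in PBS 8 h replicate 2 (0.879 CPM). Slc7a1 was low in CGRP 8 h replicate 3 (18.5 CPM) and in PBS 8 h replicate 4 (12.8 CPM). Phgdh was high in CGRP 4 h replicate 2 (42.7 CPM), and Slc38a2 in CGRP 8 h replicate 4 (83.5 CPM).

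The effect of CGRP differed between times for 2 members by the test of the difference, 8 h minus 4 h. The difference was -1.42 for Eprs (adjusted p = 5.49e-06) and 0.68 for Phgdh (adjusted p = 0.0285) on the log2 scale.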

How the results depend on the processing

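Of the settings tried, none turned the direction of a called member. The calls at 8 h were fewer when several libraries were left out. Without the 4 with the most genes detected, 0 synthetases, 2 other members and 191 genes in all were called. With 1 PBS 8 h library the counts were 1, 1 and 146. Over all genes, 577 were called without CGRP 8 h replicate 1 and 676 without CGRP 8 h replicate 4, against 1210 with all libraries. Without PBS 8 h replicate 1, 3 or 4 the counts were 749, 789 and 696. The 2 CGRP replicates were not among the 4 and did not have the higher Gm10800 share. PBS 8 h replicates 1 and 4 were among the 4, and replicates 1 and 3 had the higher share. The cause of these losses was not tested. Leaving out single libraries gave 1481 to 2245 calls over all genes at 4 h and 577 to 1297 at 8 h. For the difference between times the synthetase count was 3 with no filter on low counts. Other members numbered 3 with DESeq2, 2 with no filter, 0 without the 4 libraries, 0 with 1 PBS 8 h library and 0 to 3 on leaving out single libraries, and all genes 427, 456, 63, 53 and 80 to 196. For time after PBS, other members numbered 1 with DESeq2, 2 with no filter, 2 in a fit of its 8 libraries and 0 to 1 on leaving out single libraries; all genes numbered 334, 422, 131, 20 with 1 PBS 8 h library and 17 to 280. Deviations of libraries with equal replicate numbers correlated at -0.03 to 0.05 in the pairs of groups compared, too weakly to decide whether numbers pair libraries. PBS 8 h replicates 1, 2 and 4 correlated most with the PBS 4 h library of the same number. So did CGRP 4 h replicate 2 and CGRP 8 h replicate 1 with PBS of their time, and the other replicates compared did not. With the replicate block 14 synthetases were called at 4 h and 8 at 8 h. In that fit Kars (adjusted p = 0.0561), Lars (0.0602) and Asns (0.0590) at 4 h and Dars at 8 h (0.0573) lost their calls. Pycr1 gained a call at 4 h, as a second member lower after CGRP (0.0474), and likewise without CGRP 4 h replicate 3 (0.0273) or PBS 8 h replicate 4 (0.0322). Among other calls gained, the difference between times of Trib3 had an adjusted p of 0.0106 with DESeq2, Vars at 8 h 0.00911 in a fit of the 8 libraries of that time, and Asns at 8 h against 4 h after PBS 0.00493 with DESeq2.

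Values near 0 that were not called changed sign. Leaving out single libraries gave 4 h ranges of -0.010 to 0.14 for Cars, -0.12 to 0.32 for Sesn2, -0.10 to 0.11 for Vldlr, -0.016 to 0.10 for Aldh18a1 and -0.041 to 0.20 for Slc38a2, and 8 h ranges of -0.056 to 0.086 for Cars, -0.17 to 0.082 for Ddit3 and -0.14 to 0.75 for Slc7a11. Without the 4 libraries with the most genes detected the values were -0.13 for Sesn2, 0.19 for Vldlr, -0.016 for Aldh18a1 and -0.067 for Slc38a2 at 4 h and -0.030 for Eprs and -0.0084 for Lars at 8 h. With 1 PBS 8 h library they were -0.10 for Cars, -0.086 for Qars, 0.27 for Atf5, 0.40 for Sesn2 and 0.25 for Pycr1 at 8 h, and with upper-quartile scaling -0.0024 for Aldh18a1 at 4 h and -0.022 for Cars at 8 h. Depth limits Chac1, Slc7a11 and Slc7a5, which had 0 to 80 reads per library.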
